A study of Mus musculus with 6 samples.

Results

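The genes described here build cholesterol and fatty acids in the cell. They comprise 18 enzymes of the cholesterol pathway taken in order from Acat2 to Dhcr7, the sterol carrier Stard4, 5 regulators (Insig1, Insig2, Scap, Srebf1 and Srebf2) and 9 enzymes of fatty acid synthesis, elongation and desaturation, 33 genes of the 53465 in the count table. They were found by their GENCODE M21 symbols and kept where at least 3 libraries held 10 or more counts, which left 32. The gene left out was Tm7sf2, a sterol reductase, whose counts were 7, 1 and 0 in WT and 13, 0 and 0 in KO. The gene just inside the limit was Fdps, the farnesyl diphosphate synthase, with 0, 95 and 0 counts in WT and 0, 44 and 40 in KO. All 32 kept genes were also tested.

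RNA was sequenced from ID8, a mouse ovarian surface epithelial cancer line, in 3 libraries labelled WT and 3 labelled KO. The series describes lines stably carrying a control guide (sgNC) or a guide against Nat10 (sgNat10), and WT was taken as the first and KO as the second. Nat10 encodes the enzyme that places N4-acetylcytidine on RNA. Each group is a single line as far as the labels say, and the guide and other features of a line cannot be told apart. The replicates, numbered 4 to 6, are not stated to be separate cultures, so p-values measure a spread that may be technical. The labels name no drug or time point.

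Nat10 mRNA did not separate the groups. Its level was 102, 64.0 and 169 CPM (counts relative to the TMM-scaled size of the library) in WT replicates 4, 5 and 6 and 123, 56.9 and 138 CPM in KO replicates 4, 5 and 6, with an edgeR adjusted p of 0.99996. The libraries are therefore called by their labels below. Total counts ran from 1687466 to 3126208 per library, so 1 count was worth 0.310 to 0.608 CPM, and every KO library was deeper than every WT library. Among markers of the epithelial and mesothelial identity, Krt8, Krt18, Krt19, Msln, Wt1 and Upk3b were counted in every library, whereas Epcam was at 0 in all 6 and Cdh1 at 0 in 4. The 9 epithelial and mesothelial markers summed to 5885 to 6337 CPM in WT and 4180 to 4827 CPM in KO libraries, but they did not go one way. By edgeR, Krt18 (log2 fold change -1.74, adjusted p = 0.0195) and Krt19 (-0.92, adjusted p = 0.00440) fell and Msln rose (1.05, adjusted p = 0.0145). The 6 fibroblast markers, most of their sum from Dcn and with Thy1 at 0 throughout, summed to 752 to 780 CPM in WT and 967 to 1325 CPM in KO. Dcn had a log2 fold change of 0.67 (adjusted p = 0.246 by edgeR and 0.00469 by DESeq2), while the other tested fibroblast marker, Col1a1, went from 73.0, 85.4 and 42.8 CPM in WT to 0.390, 16.3 and 1.86 CPM in KO (log2 fold change -3.44, adjusted p = 0.479 by edgeR and 0.0251 by DESeq2). Immune markers (7 genes, with Cd3e at 0) reached at most 43.5 CPM in WT and 8.997 CPM in KO, endothelial markers (4 genes) 5.996 and 1.86 CPM, and adipocyte markers (5 genes, 4 of them at 0) 0 and 0.310 CPM. The part of the epithelial and fibroblast marker differences, and of depth, in the results below was not tested. In such bulk libraries fewer cells that express a gene and less of its RNA per cell cannot be told apart.

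Cholesterol is made from acetyl-CoA by way of mevalonate, farnesyl diphosphate, squalene and lanosterol, and fatty acids are made from the same precursor by way of malonyl-CoA. Both pathways are switched on by the SREBP transcription factors, which the genes Srebf1 and Srebf2 encode. SREBPs sit in the membrane of the endoplasmic reticulum with their escort SCAP, and when sterols are plentiful INSIG proteins hold SCAP there, so the factors are not cleaved and do not reach the nucleus. SREBP at promoters is known to work together with NF-Y, which binds the letters CCAAT, and SREBP2 is known for sterol genes and SREBP1 more for fatty acid genes.

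The promoter windows give the letters through which this control is known to act. RefSeq windows from 250 bases before to 50 bases after the gene start (GRCm38.p6) were at hand for 26 of the 33 genes. The genes without a window were Fdps, Fdft1, Sqle, Stard4, Scd1, Scd2 and Fads1, and the shares below leave them out. On either strand, CCAAT occurred in 14 of 15 sterol enzymes (93.3%), in 4 of 5 regulators and in 3 of 6 fatty acid enzymes (50%), against 42.7% of 6504 tested genes with a window and 41.1% of all 27025 genes in the table. A gene with several windows was counted if any of them matched. The SREBP-type letters TCACNCCAC were found in 1 member, Hmgcs1, against 1.37% of the tested genes. The looser CACNCCAC, which every TCACNCCAC contains, was found in Acat2, Hmgcs1 and Insig1, 3 of 26 members against 7.41% of the tested genes. Such matches are letters in a window and not measured binding. The windows below are examples from the genes that have one. Hmgcs1 is the most abundant sterol enzyme, though its groups overlapped. Lss and Msmo1 are sterol enzymes whose groups did not overlap, and Acly and Fads2 are their fatty acid counterparts. Pmvk, also without overlap, has CCAAT in its window, which is not shown. Capitals mark CCAAT, its reverse complement ATTGG, and CACNCCAC with a preceding T where present.
Hmgcs1, chr13:119690101-119690400, plus strand: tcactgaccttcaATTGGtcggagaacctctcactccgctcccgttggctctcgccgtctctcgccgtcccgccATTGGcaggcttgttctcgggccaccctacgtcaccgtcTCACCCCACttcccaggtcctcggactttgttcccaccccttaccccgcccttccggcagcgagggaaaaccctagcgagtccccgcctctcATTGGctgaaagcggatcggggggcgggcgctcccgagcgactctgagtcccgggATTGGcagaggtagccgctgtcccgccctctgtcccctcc
Lss, chr10:76531355-76531654, plus strand: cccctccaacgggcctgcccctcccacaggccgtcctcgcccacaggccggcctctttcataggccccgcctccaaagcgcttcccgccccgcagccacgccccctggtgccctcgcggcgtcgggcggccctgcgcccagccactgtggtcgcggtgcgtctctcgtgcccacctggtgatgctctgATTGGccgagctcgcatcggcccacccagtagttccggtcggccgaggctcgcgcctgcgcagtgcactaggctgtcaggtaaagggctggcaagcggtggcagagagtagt
Msmo1, chr8:64733529-64733828, minus strand: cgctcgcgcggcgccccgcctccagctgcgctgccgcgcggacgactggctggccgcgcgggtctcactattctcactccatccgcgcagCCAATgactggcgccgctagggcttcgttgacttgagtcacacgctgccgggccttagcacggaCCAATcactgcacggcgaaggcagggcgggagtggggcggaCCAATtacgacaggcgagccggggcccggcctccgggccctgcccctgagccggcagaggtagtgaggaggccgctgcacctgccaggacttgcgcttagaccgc
Acly, chr11:100527951-100528250, minus strand: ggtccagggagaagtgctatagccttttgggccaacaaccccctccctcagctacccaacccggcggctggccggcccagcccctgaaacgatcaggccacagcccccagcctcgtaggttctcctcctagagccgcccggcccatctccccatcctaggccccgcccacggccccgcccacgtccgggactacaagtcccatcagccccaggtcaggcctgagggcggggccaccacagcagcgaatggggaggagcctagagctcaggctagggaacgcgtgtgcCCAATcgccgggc
Fads2, chr19:10101454-10101753, minus strand: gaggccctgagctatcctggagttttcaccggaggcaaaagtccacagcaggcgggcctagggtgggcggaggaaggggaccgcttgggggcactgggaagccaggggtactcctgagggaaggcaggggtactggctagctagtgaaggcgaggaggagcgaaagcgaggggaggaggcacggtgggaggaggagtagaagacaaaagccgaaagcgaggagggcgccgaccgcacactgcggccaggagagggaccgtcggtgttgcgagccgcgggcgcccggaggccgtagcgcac
In the sterol windows CCAAT or ATTGG stands 4 times in Hmgcs1, 3 times in Msmo1 and 1 time in Lss, all but 1 of them before the start. The only match in Acly begins 37 bases after the start, counting the start as 0, and the Fads2 window has none. These windows do not stand for all fatty acid enzymes. Among those not shown, matches begin at -90, -62 and -59 in Fasn and at -71 and -17 in Elovl5. Acaca and Elovl6 have none.

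Most sterol enzymes had lower estimates in the KO-labelled libraries, and no single one passed the edgeR test across all genes. Of 17 tested sterol enzymes 16 had an estimate below 0, where 51% of all 8200 tested genes did. This count was 16 with DESeq2, 15 with limma-voom and with library totals, and 14 without WT replicate 5 or without KO replicate 5. The median log2 fold change of the sterol enzymes was -0.52, against -0.02 for all tested genes, and it was -0.82 with limma-voom. The fatty acid enzymes had 6 of 9 estimates below 0 and a median of -0.25, which was -0.44 with limma-voom and -0.15 with library totals. The 5 regulators had 3 below 0 and a median of -0.06. At an adjusted p of 0.05, edgeR called none of the 32 genes, where it called 0.402% of all tested genes. Unadjusted edgeR p-values under 0.05 were found for 7 members, all lower, where 6.49% of all tested genes had such a p and 3.79% were lower. These 7 became 4 with library totals in place of TMM scaling, and 4 again on leaving out any one of WT replicate 5, WT replicate 6, KO replicate 5 and KO replicate 6. DESeq2 called 1 member, Fdft1, where it called 2.88% of the genes it adjusted, and limma-voom called none, where it called 0.524%.

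Groups that did not overlap were found for 8 members, each lower in every KO library than in any WT library (Pmvk, Fdft1, Sqle, Lss, Msmo1, Acly, Scd1 and Fads2), and for none that was higher. Of all tested genes 7.93% were lower and 6.94% higher in this way. With library totals in place of TMM scaling 6 members were lower without overlap, and 8 with DESeq2 size factors. Abundant genes separate more often, so the same counts were taken for genes averaging 200 CPM or more. At that level 13 of 14 members had an estimate below 0 and 6 were lower without overlap, where 58.4% and 17.1% of the 818 tested genes of that level did so. An unadjusted edgeR p under 0.05 with a lower estimate was found for 5 of these 14 members and for 112 of the 818 genes. The median log2 fold change there was -0.34 for the members and -0.07 for all such genes.

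**Figure D1:**
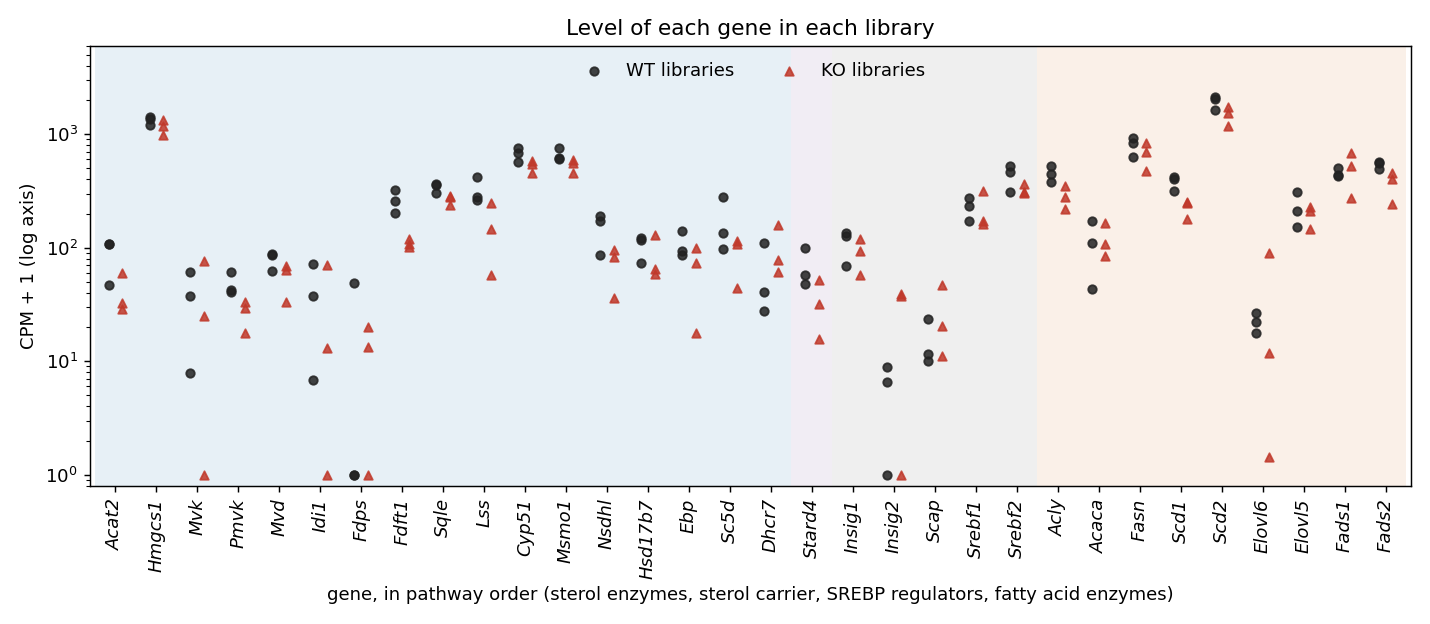
Level of each of the 32 genes in each library, as CPM + 1 on a log axis, in pathway order, with WT libraries as black circles and KO-labelled libraries as red triangles; the background shading marks sterol enzymes (blue), the sterol carrier (purple), SREBP regulators (grey) and fatty acid enzymes (orange). The abundant Hmgcs1 and Scd2 sit in tight groups near the top, while Fdps, Idi1, Mvk and Insig2 range down to 0 CPM in some libraries.

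The early enzymes, from acetyl-CoA to farnesyl diphosphate, ranged from the abundant and steady Hmgcs1 to genes of low and uneven level. All 7 had estimates below 0. Hmgcs1, which joins acetyl-CoA units into HMG-CoA, was at 1217, 1363 and 1414 CPM in WT and 1331, 976 and 1181 CPM in KO libraries. The groups overlapped, and the log2 fold change was -0.20 ± 0.17 (SE; 95% interval -0.57 to 0.18). Pmvk, the phosphomevalonate kinase, was at 41.3, 39.5 and 59.5 CPM in WT and 32.4, 16.7 and 28.5 CPM in KO libraries. All 3 KO values lay under all 3 WT values, but at this low level the interval of the log2 fold change ran from -2.64 to 0.93. Acat2, the thiolase at the head of the pathway, stood at 45.6, 108 and 106 CPM in WT and 28.1, 31.7 and 58.6 CPM in KO, with WT replicate 4 inside the KO range and a log2 fold change of -1.13 ± 0.59. Mvd, the mevalonate diphosphate decarboxylase, averaged 78.0 ± 14.3 CPM in WT and 54.3 ± 19.5 CPM in KO (SD, n = 3 per group), and the groups overlapped.

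Mvk, Idi1 and Fdps varied more within a group than between groups. Mvk, the mevalonate kinase, was at 60.2, 36.5 and 6.94 CPM in WT and 0, 24.0 and 74.8 CPM in KO libraries. Idi1, the isopentenyl diphosphate isomerase, was at 36.5, 71.5 and 5.78 CPM in WT and 12.1, 0 and 69.2 CPM in KO. For Fdps only WT replicate 5, at 47.5 CPM, held counts among the WT libraries, against 0, 18.8 and 12.4 CPM in KO. Their log2 fold changes were -0.067 ± 1.37, -0.48 ± 1.43 and -0.60 ± 2.53 (SE), which leaves large changes in either direction. Of the 75-base stretches of their annotated transcripts, 23.6% of Idi1 and 23.5% of Fdps also occur in transcripts of other genes, led by Gm loci, and none of Mvk. For Acat2 the share was 33.9%, with Acat3 and Tcp1. The part of this shared sequence in the counts was not tested.

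Squalene is where the pathway commits to sterols, and all 3 enzymes of that stretch stood lower without overlap. Of all tested genes 7.93% were lower in this way, and 17.1% of those averaging 200 CPM or more. Fdft1, the squalene synthase (chr14:63145150-63179578, minus strand), was at 202, 255 and 319.7 CPM in WT and 119, 107 and 101 CPM in KO libraries. Every KO value lay well under every WT value. Its mean was 2.37-fold lower in the fit, a log2 fold change of -1.25 ± 0.31 (SE; 95% interval -1.91 to -0.58), with adjusted p-values of 0.144 by edgeR, 0.00234 by DESeq2 and 0.146 by limma-voom. Leaving out 1 library moved the log2 fold change between -1.40 and -1.07. Annotated exons of Ctsb, a neighbouring lysosomal protease gene, cover 18.3% of the exons of Fdft1, and the sources used here do not say how such reads were assigned. Of the 75-base stretches of Fdft1 transcripts, 21.8% also occur in transcripts of other genes, Ctsb and Gm6781. The part of this shared sequence in the counts was not tested. Ctsb itself was at 486, 435 and 587 CPM in WT and 376, 530.1 and 481 CPM in KO, so its groups overlapped.

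The other enzymes of this stretch differed by less or less evenly. Lss, the lanosterol synthase (chr10:76531588-76557138, plus strand), was at 262, 421 and 282 CPM in WT and 247, 144 and 56.8 CPM in KO libraries. KO replicate 4 came close to the WT range and KO replicate 6 lay far under it, and the log2 fold change of -1.11 ± 0.43 had an edgeR adjusted p of 0.547. Without KO replicate 6 it was -0.72, and without KO replicate 4 it was -1.68. Sqle, the squalene epoxidase, was at 361, 356 and 301 CPM in WT and 282, 285 and 236 CPM in KO. Its groups were narrow and separate, yet the log2 fold change was only -0.34 ± 0.24, with an interval from -0.87 to 0.18.

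After lanosterol, 6 of 7 tested enzymes had an estimate below 0, with a median of -0.34. Msmo1, the sterol methyl oxidase, was at 609.9, 619 and 754 CPM in WT and 554, 458 and 588 CPM in KO libraries, separate but close, with a log2 fold change of -0.31 ± 0.20. Cyp51, the lanosterol demethylase, was at 563, 677 and 754 CPM in WT and 582, 545 and 453 CPM in KO, where 1 KO value passed the lowest WT value. Nsdhl, a sterol dehydrogenase of the same demethylation steps on chromosome X, was at 191, 85.9 and 172 CPM in WT and 81.9, 94.2 and 35.1 CPM in KO. WT replicate 5 lay inside the KO range, and the log2 fold change was -1.09 ± 0.48 (edgeR adjusted p = 0.692). Sc5d, the sterol desaturase, went from 170 ± 96.2 to 88.4 ± 39.4 CPM and Ebp, the sterol isomerase, from 105 ± 28.5 to 62.8 ± 42.1 CPM (SD, n = 3 per group), both with overlap. Hsd17b7, a ketosteroid reductase, averaged 103 ± 26.1 and 83.7 ± 38.9 CPM.

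Dhcr7, the last reductase of the pathway, was the 1 sterol enzyme with an estimate above 0. It stood at 109, 26.5 and 39.3 CPM in WT and 60.1, 157 and 77.6 CPM in KO libraries. The groups overlapped through WT replicate 4, and the log2 fold change of 0.75 ± 0.60 had an interval from -0.54 to 2.04. It was 1.58 without WT replicate 4, 0.40 without WT replicate 5 and 0.25 without KO replicate 5. Stard4, which carries sterol between membranes, was at 55.9, 47.0 and 98.3 CPM in WT and 31.2, 14.6 and 50.9 CPM in KO, a log2 fold change of -1.05 ± 0.68 with overlap of WT replicate 5 and KO replicate 6.

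**Figure D2:**
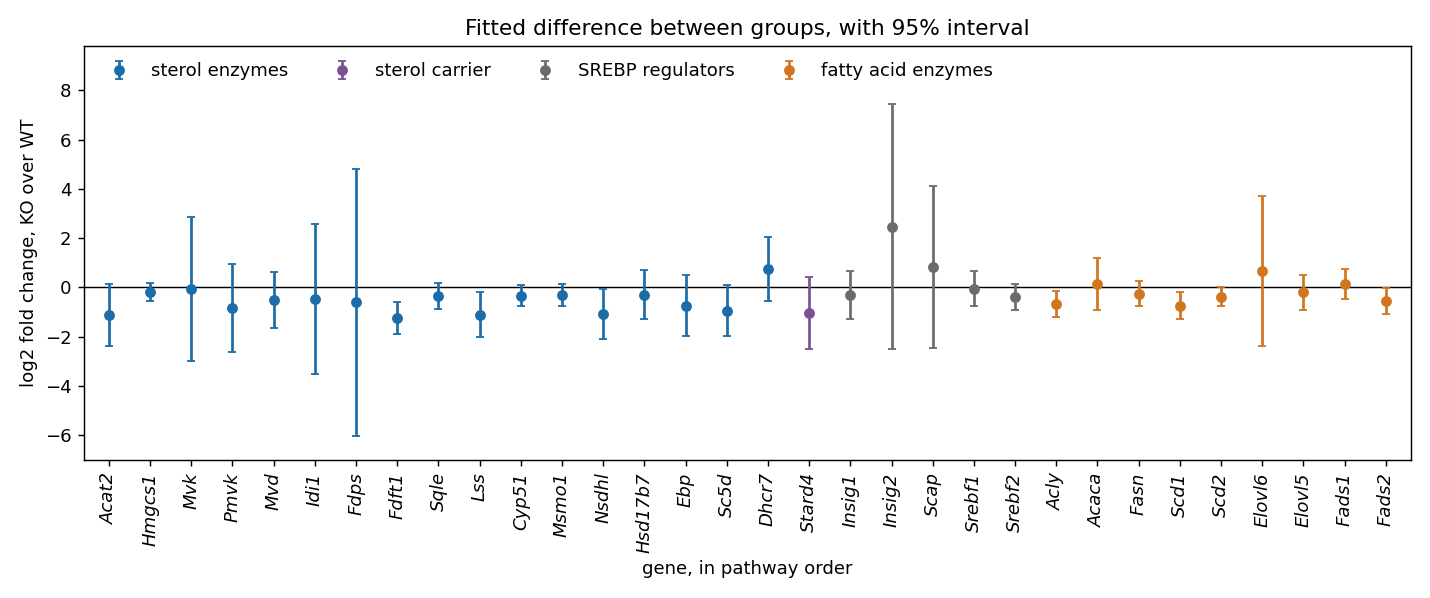
Log2 fold change of KO-labelled over WT libraries for each of the 32 genes in pathway order, as points with 95% intervals from edgeR. The points of 16 of 17 sterol enzymes lie under 0, but the intervals of 25 of the 32 genes span 0, and those of Fdps and Insig2 are the widest.

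The regulators had no common direction, and the groups of all 5 overlapped. Srebf2, the factor tied to sterol genes, was at 311, 521 and 459.6 CPM in WT and 364, 308 and 303 CPM in KO libraries, with a log2 fold change of -0.41 ± 0.25 and overlap through WT replicate 4. Srebf1 was at 275, 231 and 171 CPM in WT and 172, 159.7 and 318 CPM in KO, with an estimate of -0.06 ± 0.33. Insig1, itself a known SREBP target, averaged 110 ± 36.5 CPM in WT and 89.3 ± 31.0 CPM in KO (SD, n = 3 per group; log2 fold change -0.30 ± 0.45). Scap was at 9.12, 10.5 and 22.5 CPM in WT and 10.1, 19.3 and 45.6 CPM in KO. Insig2 was at 7.90, 5.50 and 0 CPM in WT and 37.8, 0 and 36.3 CPM in KO. Scap and Insig2 had the only estimates above 0 among the 5 regulators, 0.83 ± 1.54 and 2.45 ± 2.33, and both intervals spanned 0. No regulator had an unadjusted edgeR p under 0.05.

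Among the fatty acid enzymes, Acly, Scd1, Scd2 and Fads2 had intervals below 0, and the other 5 did not. Such an interval goes with an unadjusted edgeR p under 0.05 and a lower estimate. Of all tested genes 3.79% had these, as did 112 of the 818 averaging 200 CPM or more. None of the fatty acid enzymes passed an edgeR adjusted p of 0.05. Acly, which turns citrate into cytosolic acetyl-CoA for both pathways, was at 446, 522 and 381 CPM in WT and 282, 221 and 348 CPM in KO libraries. The groups did not overlap, and the log2 fold change was -0.67 ± 0.25 (95% interval -1.20 to -0.13; edgeR adjusted p = 0.547). Fasn, the fatty acid synthase, was at 835, 928 and 629 CPM in WT and 701, 477 and 830.2 CPM in KO, with broad overlap and an estimate of -0.25 ± 0.23. Acaca, which makes malonyl-CoA, was at 42.6, 109.9 and 169 CPM in WT and 108, 84.3 and 164 CPM in KO. Its estimate of 0.15 ± 0.49 had no clear direction, and 26.8% of its 75-base stretches occur in transcripts of other genes, Gm5182 first among them.

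The stearoyl-CoA desaturases place the first double bond in a saturated chain, and both estimates lay below 0. Scd1 (chr19:44394455-44407879, minus strand) was at 316, 417 and 402 CPM in WT and 251.2, 179 and 246 CPM in KO libraries. These groups were apart, with a log2 fold change of -0.75 ± 0.26 (95% interval -1.30 to -0.19) and adjusted p-values of 0.479 by edgeR and 0.0712 by DESeq2. Scd2 (chr19:44293674-44306864, plus strand), the isoform with the higher level, was at 1650.2, 2144 and 2036 CPM in WT and 1727, 1546 and 1171 CPM in KO. WT replicate 4 lay under KO replicate 4, and the log2 fold change was -0.39 ± 0.18 with an interval from -0.78 to -0.0063. Per kilobase of exon Scd2 stood at 313 CPM and Scd1 at 61.7 CPM over all 6 libraries. Of sequence shared with other transcripts, 3.15% of the 75-base stretches of Scd1 and 1.78% of those of Scd2 occur elsewhere, each gene leading the partners of the other.

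Fads1 and Fads2, the front-end desaturases of polyunsaturated chains, are also close together on chromosome 19. Fads2 was at 494, 564 and 556 CPM in WT and 402, 455 and 241 CPM in KO libraries, without overlap, with a log2 fold change of -0.56 ± 0.25 (edgeR adjusted p = 0.732). Fads1 was at 437, 424 and 503 CPM in WT and 689, 271 and 522 CPM in KO. KO libraries thus held both the highest and the lowest Fads1 values, and its estimate was 0.12 ± 0.29. The difference between these genes was not tested. Elovl5, which lengthens polyunsaturated chains, averaged 223 ± 78.6 CPM in WT and 194 ± 42.0 CPM in KO (SD, n = 3 per group). Elovl6, which lengthens the product of Fasn, was at 21.3, 25.5 and 16.8 CPM in WT and 10.9, 0.428 and 88.7 CPM in KO, so that its estimate of 0.66 rests on KO replicate 6 and was -1.89 without it.

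Both sets of enzymes summed to less in the KO-labelled libraries. The 17 sterol enzymes summed to 4177, 4466 and 4745 CPM in WT and 3663, 3149.6 and 3214 CPM in KO libraries. The 9 fatty acid enzymes summed to 4394, 5442 and 4903 CPM in WT and 4315, 3458 and 3821 CPM in KO. The sterol sums kept apart under all 3 scalings, while the fatty acid sums were apart with TMM scaling but overlapped with DESeq2 size factors (4306 CPM in the lowest WT and 4355 CPM in the highest KO library) and with library totals. KO sums were 0.749 times the WT mean for the sterol enzymes and 0.787 times for the fatty acid enzymes. The ratio of fatty acid to sterol sums was 1.10 ± 0.102 in WT and 1.16 ± 0.0497 in KO (SD, n = 3 per group), which differ by less than the spread between the WT libraries. These sums rest on a few abundant genes, Hmgcs1 and Scd2 above all.

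A typical enzyme can be followed by the median, in each library, of the log2 deviation from the gene's mean over all 6 libraries. For the sterol enzymes this was 0.28, 0.25 and 0.36 in WT and -0.09, -0.34 and -0.07 in KO replicates 4, 5 and 6. For the fatty acid enzymes it was 0.13, 0.37 and 0.18 in WT and -0.12, -0.59 and 0.06 in KO. In both sets KO replicate 5 was the lowest library. For the sterol enzymes these values averaged 0.29 in WT and -0.17 in KO. The fatty acid averages were close to these, 0.23 and -0.22. The sterol enzymes had the lower level, a median of 105 CPM in WT against 450 CPM, and the larger median SE, 0.48 against 0.26. The medians of the fitted log2 fold changes differed by -0.27 between the sterol and fatty acid enzymes. Leaving out WT replicate 4 made this -0.087, KO replicate 4 made it -0.13 and KO replicate 5 made it -0.070. Among the enzymes averaging 200 CPM or more, the middle estimate was -0.34 (Cyp51) for sterol and -0.39 (Scd2) for fatty acid enzymes. The part of level in the difference of medians was not tested. The fatty acid median of -0.25 itself became -0.41 without WT replicate 4 and -0.13 without WT replicate 5. No p-value is given for either set, since their members were chosen with results of these data known.

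**Figure D3:**
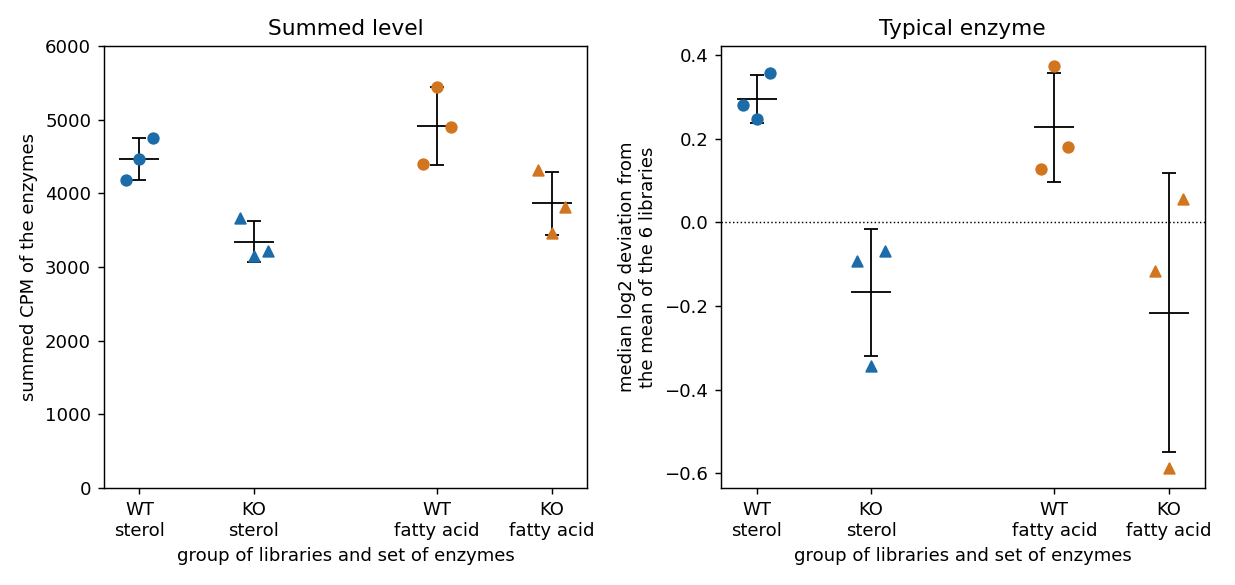
Left, summed CPM of the 17 sterol (blue) and 9 fatty acid (orange) enzymes in each WT (circles) and KO-labelled (triangles) library; right, the median log2 deviation of the same enzymes from their mean over 6 libraries. Bars give the mean and SD of 3 libraries, and in the right panel KO replicate 5 lies lowest for both sets, at -0.34 and -0.59.

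The spread between libraries of 1 group depended on level. For the 14 members averaging 200 CPM or more, the coefficient of variation within a group had a median of 18.3%, from 10.1% for Sqle to 45.4% for Lss. For the 18 members under that level the median was 47.8%, from 15.6% for Fdft1 to 133% for Fdps. The largest log2 fold change in size was 1.11 among the abundant members and 2.45, for Insig2, among the others. Per kilobase of exon and over all 6 libraries, Scd2 at 313 CPM and Hmgcs1 at 271 CPM led their pathways, followed by Fads2 at 137 CPM and Cyp51 at 135 CPM. Fdps at 3.12 CPM, Scap at 2.62 CPM and Insig2 at 4.201 CPM per kilobase were among the lowest.

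**Figure D4:**
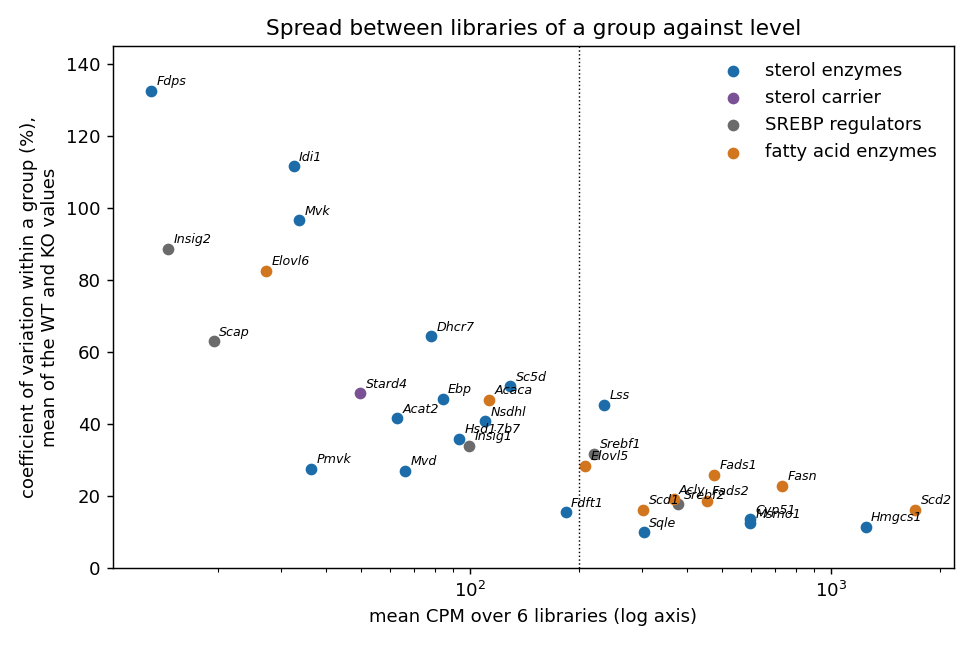
Coefficient of variation within a group (mean of the WT and KO values, in percent) against mean CPM on a log axis for each of the 32 genes, with a dotted line at 200 CPM. Fdps, Idi1 and Mvk vary most at low level, and among the genes to the right of the line Lss varies most, at 45.4%.

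Genes next to these pathways were counted from 5 further lists, none of whose members passed an adjusted p of 0.05 by edgeR. Precursor supply and acyl-CoA synthetases had 8 of 9 tested genes below 0, with a median of -0.52, and 3 unadjusted p-values under 0.05, all lower, where 51% of all tested genes were below 0 and 3.79% had such a lower p. Acsl4, which activates long polyunsaturated chains, was at 1006, 913 and 791 CPM in WT and 556, 661 and 601 CPM in KO libraries, apart, with a log2 fold change of -0.58 ± 0.19 (adjusted p = 0.425 by edgeR and 0.0387 by DESeq2). Me1, the malic enzyme that supplies NADPH, was at 677, 639.6 and 609 CPM in WT and 543, 323 and 474 CPM in KO, also apart. Acss2, which makes acetyl-CoA from acetate, was at 18.2, 74.0 and 113 CPM in WT and 18.3, 14.1 and 12.4 CPM in KO, with WT replicate 4 as low as the KO libraries.

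The other 4 lists had medians from -0.27 to 0.53. The elongation cycle, with other elongases and desaturases, had 6 of 8 tested genes below 0 and a median of -0.27, and Hacd3, a dehydratase of the cycle with the list's smallest p, averaged 123 ± 9.68 CPM in WT and 81.1 ± 17.9 CPM in KO, without overlap. SREBP processing and promoter partners had 8 of 13 below 0 and a median of -0.15. The farnesyl diphosphate branches had 4 of 10 below 0 and a median of 0.46, and Nus1, a subunit of the dolichol-making transferase, stood at 42.6, 31.0 and 0 CPM in WT and 93.6, 91.6 and 92.8 CPM in KO (edgeR adjusted p = 0.858). Esterification and lipid droplet genes had 2 of 6 below 0 and a median of 0.53. Plin2, a lipid droplet coat protein, was at 78.4, 33.5 and 165 CPM in WT and 199, 241 and 120.4 CPM in KO (log2 fold change 1.02 ± 0.50), and Soat1, which esterifies cholesterol, was at 942, 984 and 1151 CPM in WT and 1585, 1131 and 947 CPM in KO, with overlap.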

How the data were processed

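Poly(A) RNA libraries of ID8 cells were compared, 3 labelled WT and 3 labelled KO. Reads went through fastp, HISAT2 2.0.5 and, for counting, featureCounts 1.5.0-p3 on build mm10, per the submitters' processing notes. The sources used here give no settings, strand mode, annotation release or handling of duplicates, so reads where genes overlap cannot be assigned with certainty. The deposited values are raw counts per gene, with no normalization by the authors.

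edgeR 4.0.16 (R 4.3.3) was fitted to the whole table after filterByExpr with a minimum count of 10, which kept 8200 genes, and TMM scaling. A robust quasi-likelihood model with the group as its only term was then tested two-sided, and p-values were adjusted over those genes by the Benjamini-Hochberg method. CPM uses the TMM-scaled library sizes. The SE is the log2 fold change divided by the square root of the F statistic, and 95% intervals use its degrees of freedom. Exon lengths and positions come from GENCODE M21 on the same build. Group medians are over tested members, and log2 deviations use a prior count of 2. The scripts were tested on simulated data whose planted changes were larger than any member's estimate in the main fit. Recovery of changes of the size seen here was not tested.

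Members and lists were chosen with earlier results of these data known. The genes given library by library were those called by edgeR or DESeq2, with an unadjusted p under 0.05, with groups that did not overlap, the most abundant per exon length of each role, or opposite in sign to their own set's median. From related lists these were the genes past the threshold or with the smallest p, 1 of which is not reported here. Acat2, Mvk, Idi1, Fdps, Cyp51, Srebf1, Fasn, Me1, Acss2, Soat1 and Ctsb were added after their values were seen, as was the 200 CPM level. Alternatives were DESeq2 1.42.0, limma-voom (limma 3.58.1), DESeq2 size factors, library totals, no filter, 10 CPM in 3 libraries, 10 counts in 3 libraries, a block for replicate number, a prior count of 0.5 and leaving out each library. Replicates of a group differed far beyond counting noise (chi-square of 21.5 to 52.2 per degree of freedom), so none was counted as a repeat deposit.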

Additional observations from a re-analysis of the deposited data

How the results depend on the processing

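Over 15 alternatives (14 for Insig2, which the 10 CPM filter removes) 24 of the 32 members kept the sign of their log2 fold change, and the call of 1 member changed, Fdft1, which DESeq2 called with an adjusted p of 0.00234. The genes called in all were 33 (15 higher, 18 lower), against 234 with DESeq2, 91 with no filter on low counts, 43 with library totals (27 higher, 16 lower) and 6 to 29 with 1 library left out, where the count was 6 without WT replicate 5 or 6, and on leaving out KO replicates 4, 5 and 6 in turn it was 15, 20 and 18. Members called were 1 with DESeq2 and 0 under every other alternative. Library totals moved the median of all genes by 0.11 and limma-voom by -0.12 on the log2 scale; relative to that median the sterol median of -0.50 was -0.51 with library totals, -0.68 with limma-voom and -0.74 with the replicate block.

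The sterol median of -0.52 became -0.82 with limma-voom and -0.84 with the replicate block, and ran from -0.72 to -0.35 with 1 library left out. The fatty acid median ran from -0.41 to -0.13 and the difference of the medians from -0.39 to -0.070. Replicate numbers did not pair the libraries, since same-numbered deviations correlated at -0.0167, -0.00258 and -0.00666, and no WT library correlated best with its own number. With the replicate block 38 genes were called and no member.

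Signs turned for 8 members of low level or with an estimate near 0. Mvk was 0.044 and Srebf1 0.048 with library totals, each moved by close to the shift of 0.11 that this scaling gives the median of all genes. Fdps was 1.10 with limma-voom and 1.62 with the replicate block, and Elovl6 -0.94 and -1.09. With 1 library left out Mvk ran from -1.53 to 0.60, Idi1 from -2.63 to 0.36, Fdps from -1.31 to 7.59, Srebf1 from -0.45 to 0.13, Acaca from -0.23 to 0.64, Elovl6 from -1.89 to 1.25, Elovl5 from -0.41 to 0.10 and Fads1 from -0.18 to 0.42. The cause was not tested. The lowest of these 8, Fdps, averaged 13.1 CPM over all 6 libraries. Some varied widely within a group. In KO replicates 4, 5 and 6, Mvk had 0, 56 and 241 counts and Idi1 31, 0 and 223. Elovl6 had 28, 1 and 286. Intervals for Fdps, Idi1, Mvk and Elovl6 leave large changes in either direction.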
